A study of Mus musculus with 27 samples.

Results

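Syndecan-1-high and Syndecan-1-low lymphomas are the ends of a ranking of 19 mouse B-cell lymphomas, chosen by the measured TPM of Sdc1, the gene of the surface protein syndecan-1. The 5 with the most Sdc1 were set against the 5 with the least, so that 10 of 19 lymphomas, in a study of 27 samples, entered the comparison. The lymphomas came from mice labelled as c-myc Igh transgenic (Igh being the immunoglobulin heavy chain locus), in lines labelled hv, cr and co. The labels leave the line names and the build of the transgene unexplained. The Syndecan-1-high end held 3 cr, 1 hv and 1 co lymphomas, from lung (2), mesenteric lymph node (MLN, 2) and peripheral lymph node (PLN, 1). The Syndecan-1-low end also held 3 cr, 1 hv and 1 co lymphomas, from lung (3), MLN (1) and PLN (1). The other samples were 9 lymphomas between the ends, 4 samples of splenic B cells cultured with lipopolysaccharide (LPS) for 2 days, and 4 of untreated splenic B cells. Each of these sets of 4 held 1 sample of a healthy wt mouse and 1 of a healthy mouse of each transgenic line, so the transgene was also present in most of the non-malignant samples. Every sample was purified by B220, a surface antigen of B cells that plasma cells largely lose, so cells without B220 were selected against in all groups. The labels give neither the age nor the sex of the mice and do not say that the samples came from separate mice. P-values therefore measure the spread between these samples.

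Syndecan-1, or CD138, is a proteoglycan that holds heparan sulfate chains at the cell surface and binds growth factors, chemokines and matrix proteins. In the B lineage it is carried by bone marrow precursors, is lost on circulating B cells, and returns on plasmablasts and plasma cells, where it is the standard surface marker; many epithelia carry it too. A B cell that becomes a plasmablast switches on Prdm1, Irf4 and Xbp1, represses B-cell identity genes such as Pax5, enlarges its endoplasmic reticulum (ER) and turns from membrane-bound to secreted antibody. The comparison asks whether these genes differed between lymphomas with much and with little Sdc1.

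Sdc1 (GRCm38, chr12:8771323-8793715) was the sum of 5 transcripts, in TPM, a relative abundance of transcripts that corrects for their length. It stood at 46.4 TPM in MLN cr T20, 35.9 in Lung cr T14, 31.9 in Lung hv T7, 17.6 in MLN cr T6 and 5.79 in PLN co T2 at the high end. At the low end it was 0.899 TPM in Lung cr T16, 0.552 in Lung co T9, 0.476 in PLN hv T15, 0.468 in MLN cr T1 and 0.265 in Lung cr T9. The first 4 lymphomas stood well above all others, while PLN co T2 lay just inside the limit, next to Lung hv T5 at 4.74 TPM outside it. On the other side, Lung cr T16 at 0.899 TPM was inside and Lung hv T16 at 1.74 TPM outside. These levels chose the ends and carry no test. They rest on about 186 to 2139 read pairs at the high end and 9 to 48 at the low end. The order among the lowest lymphomas is thus poorly fixed. LPS-treated B cells had 3.36 to 9.60 TPM of Sdc1 and resting B cells 1.40 to 4.06 TPM, so the 4 highest lymphomas exceeded every non-malignant sample and the 5 lowest lay under all of them.

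**Figure D1:**
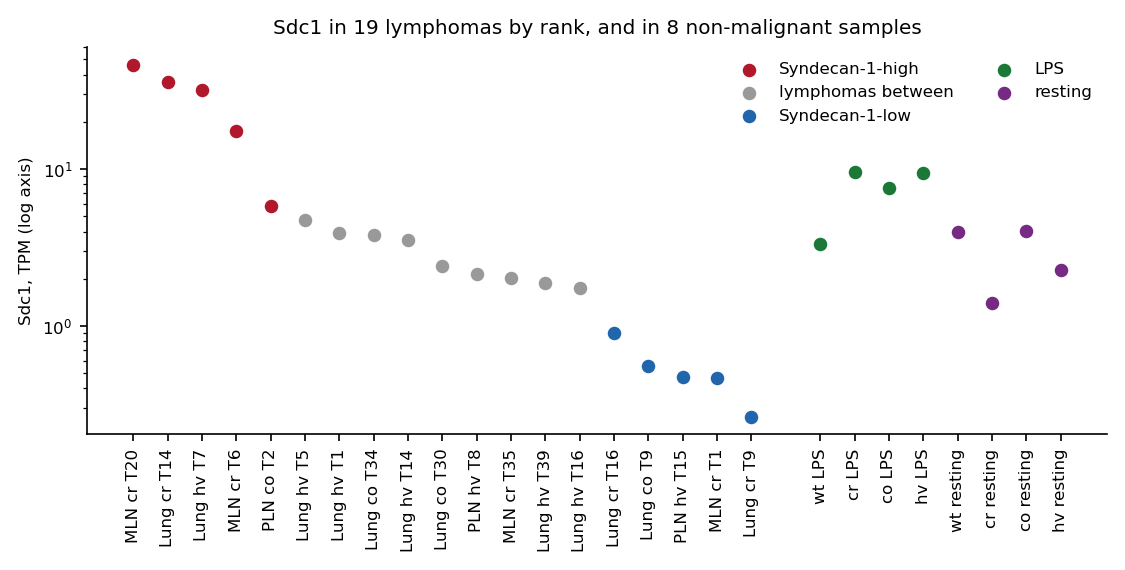
Sdc1 in TPM on a log axis, 1 point per sample: the 19 lymphomas in rank order, then LPS-treated and resting splenic B cells. The 4 highest lymphomas lie at 17.6 to 46.4 TPM, and the fifth, PLN co T2, at 5.79 TPM is close to the 9 lymphomas between the ends.

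The 4 lymphomas with the most Sdc1 stood apart as a group. Over 12490 genes their log2(TPM + 1) values correlated with each other at r = 0.959 to 0.976, against 0.822 to 0.938 with the other 15 lymphomas and 0.815 to 0.959 among those 15. PLN co T2 correlated with the 4 highest at 0.910 to 0.926 and with the 5 lowest at 0.818 to 0.954. The genes are shared by all pairs and are not independent replicates. The 4 came from the cr and hv lines, from lung and MLN, and each had a different leading heavy chain variable gene: Ighv6-3 in MLN cr T20, Ighv14-2 in Lung cr T14, Ighv2-2 in Lung hv T7 and Ighv1-39 in MLN cr T6. MLN cr T20 and MLN cr T6 shared the leading kappa variable gene, Igkv3-5, at 80.2% and 59.2% of kappa variable TPM. Of 11398 genes that reached 5 TPM in a lymphoma, 69 were higher and 249 lower in all 4 than in every other lymphoma. Mtap, an enzyme of methionine salvage, was at 0.161 to 0.220 TPM in the 4 and at 25.7 TPM in PLN co T2, against 0.162 to 28 TPM at the low end. Results are therefore given for the 5 against 5 comparison and, where the call differs, for the 4 highest against the 4 lowest, a comparison without PLN co T2 and Lung cr T16.

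**Figure D2:**
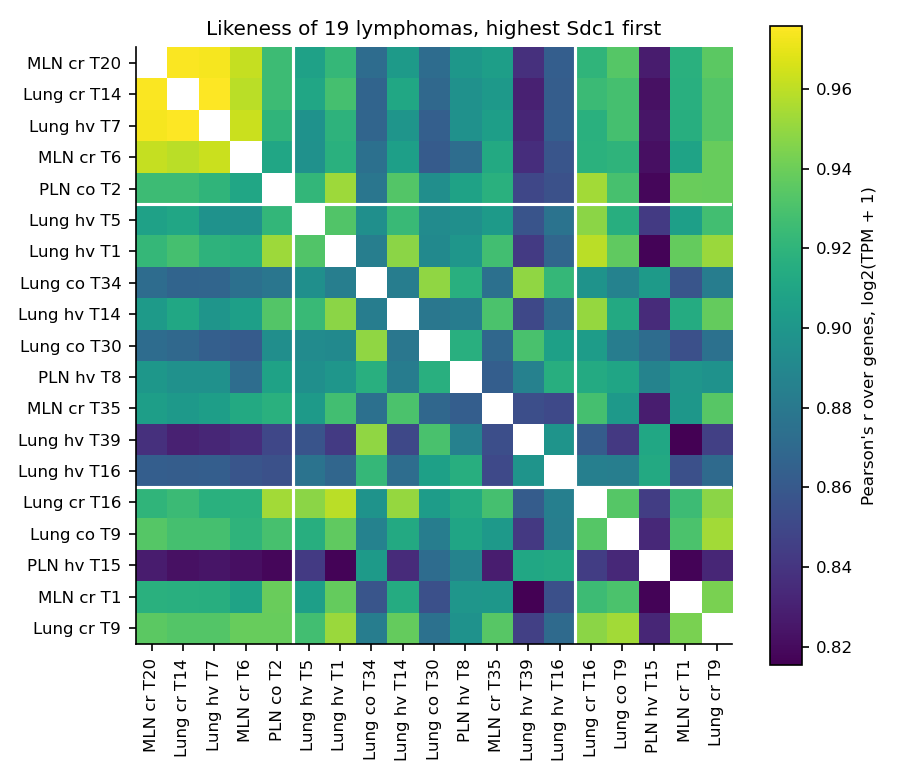
Pearson's r between lymphomas over 12490 genes on the log2(TPM + 1) scale, ordered from the highest Sdc1 to the lowest, with white lines at the edges of the high and low ends. The 4 highest form a block at 0.959 to 0.976, which does not include PLN co T2.

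The ends also differed in genes of the Y chromosome, for which the labels offer no sex to check. Eif2s3y, a Y-linked subunit of a translation initiation factor, had 70.7, 62.4, 72.9, 77.3 and 62.7 TPM in the Syndecan-1-high lymphomas (in the order of the Sdc1 ranking, as in all lists below) and 0.916, 0.0267, 0.448, 0.0182 and 0.115 TPM in the Syndecan-1-low ones. Ddx3y, a Y-linked RNA helicase, was at 22.6 to 38.9 TPM in all 5 high lymphomas, against 41.0 TPM in Lung cr T16 and 0.0407 to 0.298 TPM in the other 4 low lymphomas. Sdc1 level and Y-linked transcripts thus went together in these samples, except in Lung cr T16, where Ddx3y was high and Eif2s3y low. The comparison of the 4 highest with the 4 lowest leaves out Lung cr T16. All of its high lymphomas therefore had Ddx3y at 22.6 TPM or more, and all of its low ones at 0.298 TPM or less. For every call given there, Sdc1 level and Y-linked transcripts cannot be told apart. In 5 against 5, only Lung cr T16 parts them, and only by Ddx3y. The calls of that comparison can therefore hardly be told apart from Y-linked transcripts either.

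Transcripts of other cells were low in most of the 10 lymphomas and uneven between the ends. Summed over 13 macrophage markers, Syndecan-1-high lymphomas had 14 to 44.3 TPM and Syndecan-1-low ones 22.4 to 249 TPM. 14 T-cell markers summed to 29.0 to 127 TPM at the high end and 7.37 to 50.1 TPM at the low end. Of 16 epithelial markers, 13 stayed under 1 TPM in all 5 high lymphomas, 2 of them at 0; their sum was 4.57 to 26.6 TPM, against 1.74 to 518 TPM at the low end, where the keratin gene Krt18 alone reached 510 TPM in PLN hv T15. B-cell markers were abundant at both ends, at 1676 to 2517 TPM in Syndecan-1-high and 1620 to 4183 TPM in Syndecan-1-low lymphomas. In such bulk samples, fewer cells of a type and less RNA per cell cannot be told apart, and the part of these transcripts in the results was not tested.

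With Sdc1 left out, 34 of 11227 genes passed the test, or 0.303% of those tested (limma on log2(TPM + 1), Benjamini-Hochberg adjusted p under 0.05, TPM of 1 or more in at least 4 of the 10 samples). Of these, 10 (0.0891%) were higher and 24 (0.214%) lower in the Syndecan-1-high lymphomas. The median log2 fold change over all genes was 0.01, and the ends did not overlap at 109 genes that were higher and 135 that were lower, together 2.17% of those tested. At an unadjusted p under 0.05 there were 1249 genes (11.1%), and 5776 of 11227 had a positive change; these are the shares against which the lists below are read. The count depended on single lymphomas, though it moved little without Lung cr T16 (29) or PLN hv T15 (41). It was 297 without PLN co T2, and 9 without MLN cr T20, 8 without Lung cr T14, 10 without Lung hv T7, 13 without MLN cr T6, 13 without Lung co T9, 17 without MLN cr T1 and 13 without Lung cr T9. Between the 4 highest and the 4 lowest, 286 of 10854 genes passed (2.63%), 122 higher (1.12%) and 164 lower (1.51%), among them all 34. In the 15 lymphomas without the 4 highest, no gene of 12449 followed Sdc1 at an adjusted p under 0.05 by limma, and 755 (6.06%) did so at an unadjusted p under 0.05. Likewise 0 of 11606 genes passed when the lymphomas ranked 5 to 9 were set against the 5 lowest, and 803 (6.92%) had an unadjusted p under 0.05. Over all 19 lymphomas, 252 of 12653 genes followed Sdc1 (1.99%), 116 of them upwards (0.917%) and 136 downwards (1.07%), among them 23 of the 34. With a term for Ddx3y at 5 TPM or more, 69 followed it, 9 of the 34 among them. The sample descriptions are written in 2 styles, with parts joined in 1 of the 5 high and 3 of the 5 low lymphomas, and whether this marks a batch is not stated; with style as a term, 35 genes were called between the ends, 25 of the 34 among them.

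Of the genes that were higher in Syndecan-1-high lymphomas, 9 met the rule for naming. Eif2s3y led, with a log2 fold change of 5.79 ± 0.22 (SE; limma, adjusted p = 8.6e-08). Itga6 (chr2:71745616-71858416), the integrin alpha 6 chain of laminin receptors, had 53.7, 59.3, 51.8, 55.1 and 64.4 TPM in Syndecan-1-high and 25.8, 19.1, 8.81, 15.8 and 17.9 TPM in Syndecan-1-low lymphomas. Every high lymphoma had at least 51.8 TPM and no low one more than 25.8, and the log2 fold change was 1.71 ± 0.24 (limma, adjusted p = 0.0154). Itga6 was as high in PLN co T2 as in the 4 highest, and the 9 lymphomas between the ends ranged over 3.39 to 43.5 TPM.

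Aldh3a1, an aldehyde dehydrogenase, had 8.23, 8.33, 5.29, 12.5 and 3.12 TPM at the high end against 0.0606, 0.0764, 0.102, 0.294 and 0 TPM at the low end. It was close to absent in the low lymphomas, and also in resting B cells, where it did not exceed 0.0604 TPM. Its log2 fold change was 2.84 ± 0.31 (limma, adjusted p = 0.00283). Nrgn, which encodes the calmodulin-binding protein neurogranin, had 2.44 to 8.47 TPM at the high end and 0 to 0.504 TPM at the low end (2.43 ± 0.31, adjusted p = 0.00765). Slc43a1, a transporter of neutral amino acids, had 17.4, 30.6, 32.5, 15 and 3.13 TPM at the high end, where PLN co T2 was far below the rest, and 0.306 to 2.55 TPM at the low end (3.01 ± 0.52, adjusted p = 0.0452). The other 4 were Rtn4r (a neuronal receptor for myelin proteins, 2.16 ± 0.38), Slco5a1 (a member of the organic anion transporter family, 1.99 ± 0.36), Smco4 (a small membrane protein, 1.56 ± 0.25) and Hdac8 (an X-linked histone deacetylase, 1.06 ± 0.19). Their adjusted p-values (limma) lay between 0.0343 and 0.0467.

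Of the genes that were lower, 12 were named by the rule, and Il6ra is given with the plasma cell lists. Bank1 (chr3:136053363-136326046), a scaffold protein of B-cell receptor signalling, had 0.429, 1.30, 1.56, 0.344 and 30.4 TPM in Syndecan-1-high and 89.4, 73.9, 283, 70.2 and 102 TPM in Syndecan-1-low lymphomas. It was nearly silent in the 4 highest and only reduced in PLN co T2, and resting B cells had 217 to 446 TPM. The log2 fold change was -5.05 ± 0.78 (limma, adjusted p = 0.0292).

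Cd53, a tetraspanin of white blood cells, had 8.23, 7.45, 6.94, 6.12 and 76.6 TPM at the high end and 219, 128, 375, 166 and 126 TPM at the low end (-3.87 ± 0.61, adjusted p = 0.0310). Tlr1, which with Tlr2 recognises bacterial lipoproteins, had 0.159, 0.284, 0.274, 0.0907 and 9.62 TPM at the high end and 19.7, 9.87, 33.7, 19.0 and 16.7 TPM at the low end (-3.39 ± 0.60, adjusted p = 0.0452). Both show the same arrangement, with 4 very low lymphomas and PLN co T2 near the lowest value of the low end. Pld4, an endolysosomal nuclease of the phospholipase D family, and Scpep1, a serine carboxypeptidase, shared it: Pld4 had 0.938 to 3.21 TPM in the 4 highest, 21.1 in PLN co T2 and 34.8 to 223 at the low end (-3.88 ± 0.68, adjusted p = 0.0452). Scpep1 had 0.734 to 1.18 TPM in the 4, 13.5 in PLN co T2 and 20.2 to 52.5 at the low end (-3.27 ± 0.56, adjusted p = 0.0452).

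Other genes fell in all 5 high lymphomas, PLN co T2 included. S100a6, a calcium-binding protein, had 0.881, 1.78, 1.31, 0 and 4.26 TPM at the high end and 24.6, 61.2, 743, 178 and 24.3 TPM at the low end (-5.27 ± 0.85, adjusted p = 0.0365). Slc4a8, a sodium-dependent bicarbonate transporter, had 0.128 to 1.23 TPM at the high end and 11.4 to 20.2 TPM at the low end (-3.31 ± 0.26, adjusted p = 0.000212). Camk1d, a calcium-dependent kinase, had 0.0388 to 1.69 TPM against 6.98 to 29.4 TPM (-2.88 ± 0.39, adjusted p = 0.0144). Pinlyp (-2.57 ± 0.44), Rbms1, an RNA-binding protein (-2.48 ± 0.43), and Ggnbp1 (-2.39 ± 0.43) were also lower, with adjusted p-values (limma) of 0.0452, 0.0452 and 0.0490.

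When each of the 10 lymphomas was left out in turn, 7 of the 34 genes passed in all 10 fits: Eif2s3y, Aldh3a1, Nrgn, Slc4a8, Anxa1, Chd7 and Diaph2. The last 3 were named after their values were seen. Chd7, a chromatin remodeller, had 2.25 to 4.07 TPM at the high end and 13 to 22.5 TPM at the low end. Diaph2, a formin that shapes actin filaments, had 0.246 to 0.440 against 4.32 to 8.92 TPM, and Anxa1, a phospholipid-binding annexin, 0.168 to 1.54 against 4.45 to 9.88 TPM. PLN co T2 lay within the range of the 4 highest, or below it, at all 3. Itga6 passed in 8 of 10 fits, S100a6 and Fcrl1 in 4, Bank1 in 2, and Cd53, Pld4, Scpep1, Tlr1 and Slc43a1 only without PLN co T2.

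**Figure D3:**
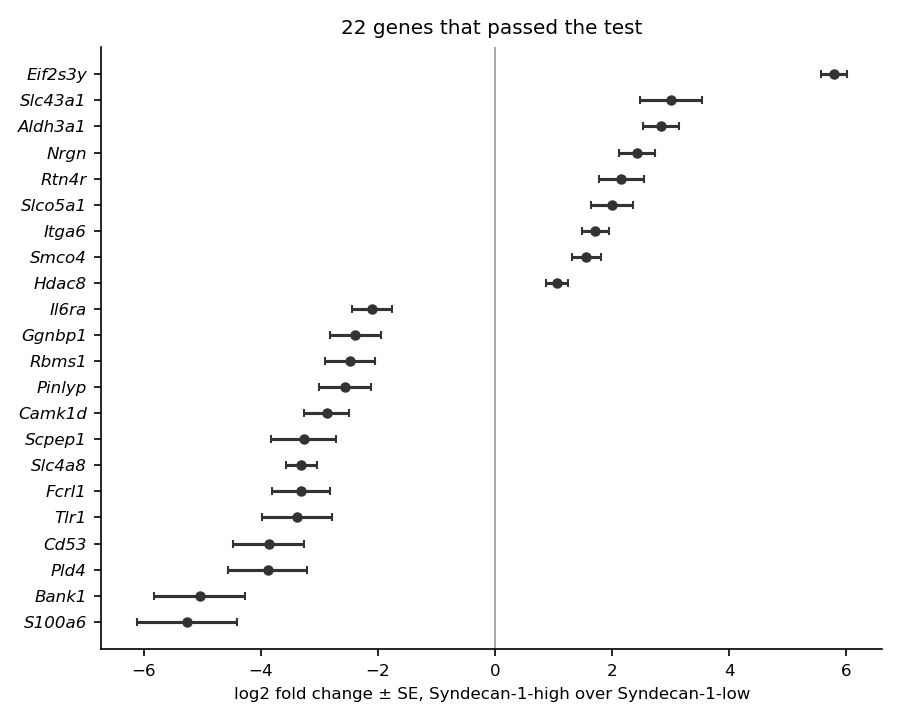
Log2 fold change with its standard error, Syndecan-1-high over Syndecan-1-low (n = 5 each, limma on log2(TPM + 1)), for the 21 genes that met the naming rule and Il6ra. 9 lie to the right of 0, led by Eif2s3y at 5.79, and 13 to the left, down to S100a6 at -5.27.

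The regulators of plasma cell differentiation did not pass the test. All 18 listed regulators were measurable and 0 of 18 were called, against 0.303% of all genes, by limma; 3 had an unadjusted p under 0.05 (against 11.1% of all genes), and 10 had a positive change. Their median log2 fold change was 0.05, against 0.01 over all genes. Prdm1, which encodes Blimp-1, the master repressor of the B-cell program, had 0.514, 1.35, 4.99, 1.69 and 2.40 TPM at the high end and 2.87, 0.214, 4.49, 0.0834 and 0.0550 TPM at the low end. The ranges overlapped almost entirely, and no lymphoma of either end reached the 8.4 to 17.1 TPM of LPS-treated B cells; the log2 fold change was 0.55 ± 0.54 (limma, adjusted p = 0.807).

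Irf4, the factor that drives Prdm1 in activated B cells, had 41.3 to 74.8 TPM at the high end and 27.1 to 80.0 TPM at the low end (0.19 ± 0.28, adjusted p = 0.898). Xbp1, the factor of the unfolded protein response that builds the secretory apparatus, had 80.5, 70.2, 83.7, 65.3 and 16.9 TPM at the high end and 38.0, 36.9, 45.0, 12.4 and 31.4 TPM at the low end. The 4 highest lay above every low lymphoma and PLN co T2 did not, and the difference did not pass in 5 against 5 (0.86 ± 0.45, adjusted p = 0.537) or in 4 against 4 (1.36, adjusted p = 0.0975). Bhlha15, or Mist1, a factor of secretory cells, had 1.95, 1.95, 2.26, 1.83 and 1.18 TPM at the high end and 0.643, 0.0885, 0.218, 0.471 and 0.893 TPM at the low end. The ends did not overlap, but the values were low throughout and the difference did not pass (0.97 ± 0.24, adjusted p = 0.125).

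Foxo1 and Hhex had negative changes that did not pass in 5 against 5. Foxo1, a factor of B-cell development, had 6.58 to 8.51 TPM at the high end and 11.1 to 14.7 TPM at the low end, without overlap (-0.63 ± 0.17, adjusted p = 0.140). Hhex, a homeobox factor of memory B cells, had 5.49, 3.71, 4.01, 6.40 and 12.0 TPM against 10.9, 18.1, 16.8, 17.8 and 10.9 TPM (-1.19 ± 0.29, adjusted p = 0.125). Hhex was the only regulator called in 4 against 4 (-1.52, limma adjusted p = 0.0116), where 1.51% of all genes were called lower. The other 12 regulators had overlapping ends. Their log2 fold changes were -1.91 for Zbtb32, -0.84 for Zbtb20, -0.53 for Tent5c, -0.42 for Kdm6b, -0.41 for Ell2, -0.08 for Atf4, 0.02 for Atf6, 0.09 for Mef2c, 0.39 for Pou2af1, 0.41 for Ikzf3, 0.72 for Klf4 and 0.76 for Creb3l2. For these 12, limma's adjusted p ranged over 0.500 to 0.992.

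**Figure D4:**
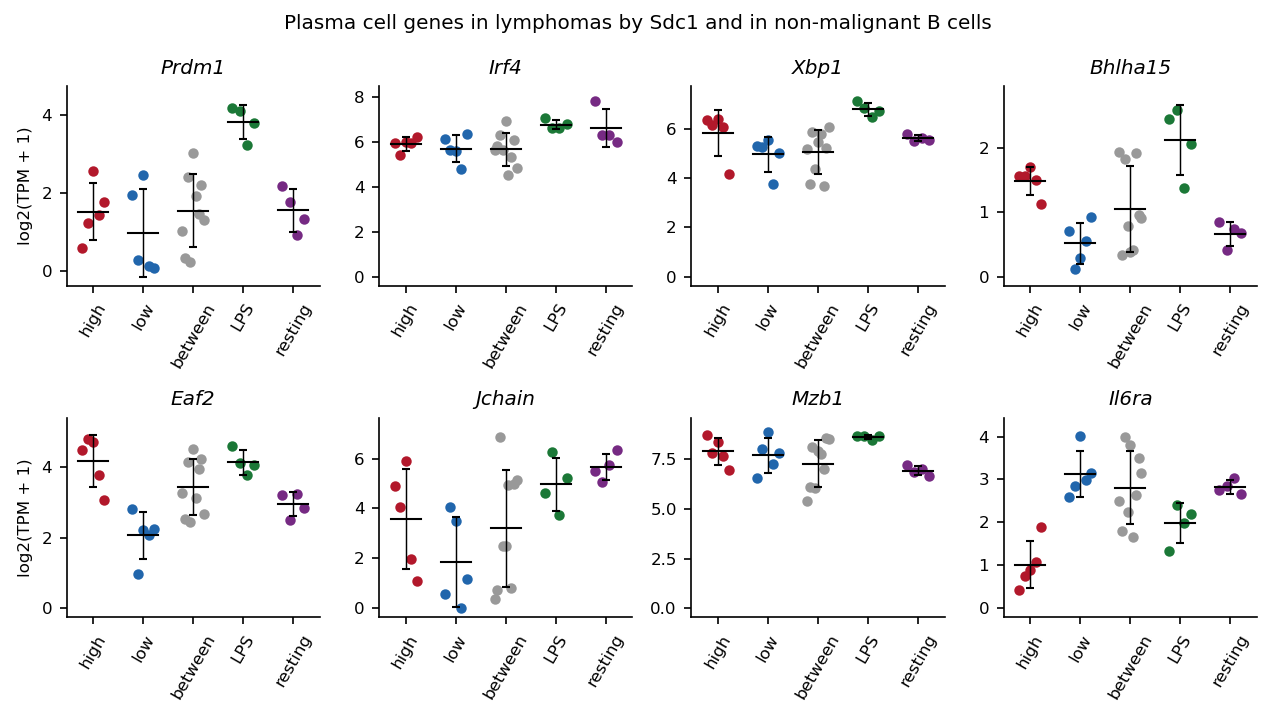
Plasma cell genes on the log2(TPM + 1) scale, 1 point per sample, in Syndecan-1-high (n = 5), Syndecan-1-low (n = 5), the 9 lymphomas between, LPS-treated (n = 4) and resting (n = 4) B cells; lines show the mean and SD. Prdm1, Irf4, Xbp1, Jchain and Mzb1 overlap between the ends, Eaf2 and Bhlha15 are higher without overlap, and Il6ra is lower without overlap.

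Of 27 surface and survival genes of plasma cells, 22 passed the filter on low values. Limma called 1 of them, in the direction opposite to Sdc1, where 0.214% of all genes were called lower. At an unadjusted p under 0.05, 1 was higher and 4 were lower, where 11.1% of all genes had such a p in either direction. Il6ra (chr3:89869324-89913162), the binding chain of the receptor for interleukin 6, a survival factor of plasma cells, had 0.350, 0.685, 0.867, 1.10 and 2.73 TPM at the high end and 5.06, 6.15, 15.2, 7.0 and 7.90 TPM at the low end. The ends did not overlap, and the log2 fold change was -2.11 ± 0.34 (limma, adjusted p = 0.0347). The list's median was -0.02. Tnfrsf17, the B-cell maturation antigen of plasma cells, was below the filter, at 0.132 to 0.665 TPM in Syndecan-1-high and 0 to 0.124 TPM in Syndecan-1-low lymphomas.

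Fcgr2b, the inhibitory Fc receptor, had 27.1, 24.0, 31.1, 64.6 and 130 TPM at the high end and 68.5 to 323 TPM at the low end (-1.74 ± 0.54, adjusted p = 0.223). S1pr1, an exit receptor of lymphoid organs, had 10.5 to 41.2 TPM against 25.3 to 141 TPM (-1.83 ± 0.48, adjusted p = 0.140). Tnfrsf13c, the BAFF receptor, had 85.7, 88.0, 64.7, 53.7 and 26.0 TPM against 24.0 to 42.9 TPM (0.79 ± 0.31, adjusted p = 0.350). In 4 against 4, with 22 members tested and 2.63% of all genes called, limma called Tnfrsf13c higher (0.96, adjusted p = 0.0486) and Fcgr2b (-2.40, adjusted p = 0.0235) and Il6ra lower. The BAFF receptor is a receptor of mature B cells more than of plasma cells.

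Genes of antibody secretion gave no called member, but with 0.303% of all genes called, a list of this size could easily give none. All 33 were tested, 19 had a positive change, 3 had an unadjusted p under 0.05 (11.1% of all genes did), and the median was 0.04. Eaf2 (chr16:36792884-36875003), a transcription elongation partner that is abundant in plasma cells, had 21.5, 26.6, 25.5, 12.8 and 7.43 TPM at the high end and 6.10, 0.973, 3.67, 3.19 and 3.72 TPM at the low end. The ends did not overlap, LPS-treated B cells had 12.6 to 23.4 TPM, and the change of 2.11 ± 0.40 missed the threshold (limma, adjusted p = 0.0522). It passed in 4 against 4 (2.57, adjusted p = 0.00497).

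Jchain, which links IgM and IgA into polymers, had 29.0, 15.4, 59.2, 2.94 and 1.11 TPM at the high end and 0.475, 15.5, 10.2, 0 and 1.23 TPM at the low end. Both ends mixed high and low lymphomas (1.73 ± 1.03, adjusted p = 0.600). Mzb1, a chaperone of IgM assembly, had 121 to 419 TPM against 91.2 to 467 TPM (0.19 ± 0.43, adjusted p = 0.947). Txndc5, a disulfide isomerase, had 95.6 to 155 TPM against 50.2 to 105 TPM (0.74 ± 0.21, adjusted p = 0.180), and Ero1lb, an ER oxidase, 7.80 to 13.8 TPM against 8.85 to 105 TPM (-1.0 ± 0.53, adjusted p = 0.539). Of 28 genes of the ER translocon and of protein folding, 0 were called by limma, where 0.303% of all genes were. At an unadjusted p under 0.05 there were 2, where 11.1% of all genes had such a p. A positive change was seen in 19, and the median was 0.16.

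A shorter list of plasma cell markers holds genes of the regulator, surface and secretion lists above, and so adds no further genes. Of its 11 members besides Sdc1, 10 were tested and 0 were called by limma, where 0.303% of all genes were. 9 had a positive change, Tent5c being the other, and the median was 0.77, against 0.01 over all genes. Eaf2 and Txndc5 had an unadjusted p under 0.05, where 11.1% of all genes did. In 4 against 4 all 9 tested had a positive change, with a median of 1.21 against 0.04 over all genes. Eaf2 was called there, where 1.12% of all genes were called higher. Their summed level was 503 to 889 TPM in Syndecan-1-high and 311 to 694 TPM in Syndecan-1-low lymphomas.

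**Figure D5:**
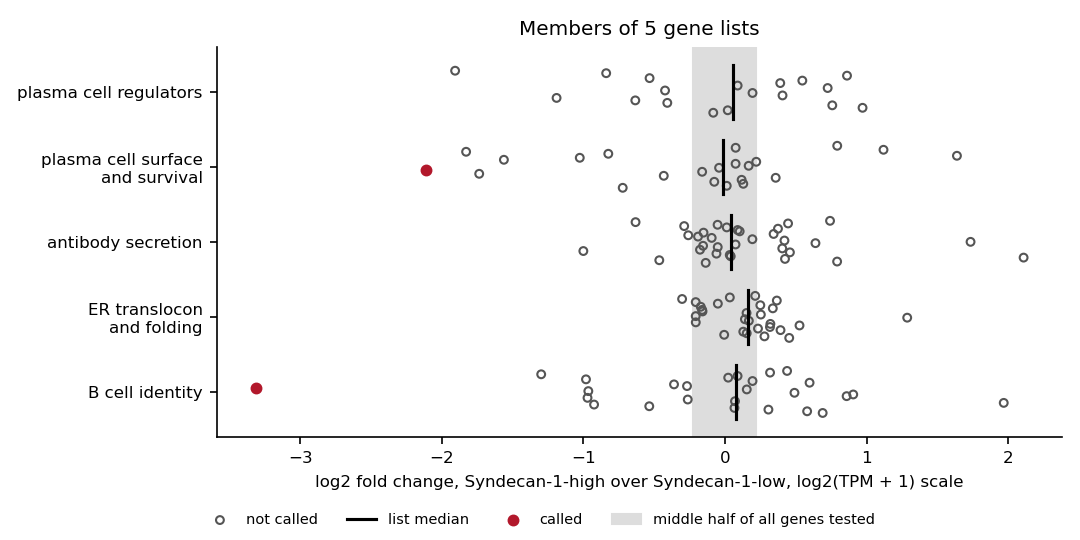
Log2 fold changes (Syndecan-1-high over Syndecan-1-low) of the tested members of 5 lists, with the list median as a black line and the range between the quartiles of all genes tested in grey. Il6ra at -2.11 and Fcrl1 at -3.31 are the called members, and these 5 medians lie between -0.02 and 0.16.

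The form of the IgM heavy chain transcript is a readout of antibody secretion that can be read as a ratio within each library. The annotation's 2 Ighm transcripts share their first 1305 bases and then end in different coding tails. The secreted form arises when RNA is cleaved and polyadenylated before the membrane exons, as it mostly is in plasma cells. The secreted form (chr12:113420741-113422730, minus strand, 4 exons) and the membrane form (chr12:113418558-113422730, minus strand, 6 exons) are shown by these tails from GENCODE M21 (GRCm38), up to the stop codon, since only reads that reach them tell the forms apart. Capitals mark the cysteine codon of the secreted tail that joins IgM units into polymers, and the last 3 codons of the membrane tail, its short part inside the cell.
Ighm secreted tail: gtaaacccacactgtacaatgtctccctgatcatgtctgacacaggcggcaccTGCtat
Ighm membrane tail: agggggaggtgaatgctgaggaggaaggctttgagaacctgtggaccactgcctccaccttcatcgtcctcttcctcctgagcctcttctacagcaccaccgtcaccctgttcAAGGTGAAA

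The secreted form made up 17.1%, 23.8%, 29.5%, 31.9% and 23.6% of Ighm TPM in the Syndecan-1-high lymphomas and 38.7%, 21.8%, 28.2%, 53.7% and 28.4% in the Syndecan-1-low ones. The lymphoma with the most Sdc1, MLN cr T20, had the smallest secreted share of the 10. The means were 25.2% ± 5.76 and 34.1% ± 12.5 (SD, n = 5 each), a difference of -8.98 percentage points that did not pass (exact two-sided permutation test, p = 0.198; 0.698 adjusted over 4 shares). The same shares were 52.4 to 79.4% in LPS-treated and 19.0 to 26.8% in resting B cells, so every Syndecan-1-high lymphoma lay below every LPS-treated sample, and of the Syndecan-1-low ones only MLN cr T1 reached their range.

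The summed amount of immunoglobulin transcript also overlapped between the ends. Heavy chain constant regions took 0.316% ± 0.055 of TPM at the high end and 0.295% ± 0.165 at the low end (SD, n = 5 each; exact permutation p = 0.841). PLN hv T15 was the highest of the 10, at 0.580%, and without it the difference was 0.0927 percentage points (exact permutation p = 0.0317, not adjusted), against 0.0213 with it. Light chain constant regions took 0.391% ± 0.0974 and 0.344% ± 0.164 (exact permutation p = 0.603). Switched classes made up 10.5%, 3.03%, 15%, 1.06% and 0.218% of heavy constant TPM at the high end and 0.596%, 5.58%, 2.12%, 0.0383% and 5.57% at the low end (exact permutation p = 0.349). MLN cr T20 and Lung hv T7 stood above every low lymphoma in this share and PLN co T2 near the bottom. Adjusted over the 4 shares these p-values were 0.841, 0.804 and 0.698, where 5 against 5 allows a smallest unadjusted p of 0.00794. Taken gene by gene, 7 heavy constant regions were tested by limma and 0 were called. Their median log2 fold change was 1.02, against 0.01 over all genes, and 5 had a positive change. At an unadjusted p under 0.05, 2 were higher, where 11.1% of all genes had such a p in either direction.

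B-cell identity genes, which a plasma cell represses, gave 1 call at the high end. Of 28 listed, 26 were tested and 1 was called lower by limma, where 0.214% of all genes were. At an unadjusted p under 0.05, 3 were higher and 4 lower, where 11.1% of all genes had such a p in either direction. A positive change was seen in 16, and the median was 0.08. In the shorter list of B-cell markers, 9 of whose 10 members are in this list, 0 of 10 were called by limma, 4 had a positive change and the median was -0.39. 3 of them had an unadjusted p under 0.05, all with negative changes, among them Cd22 and Ebf1. Ebf1, an early B-cell factor, had 15, 37.1, 29.6, 39.5 and 51.3 TPM at the high end and 81.2, 66.3, 48.8, 54.1 and 72.8 TPM at the low end, with overlap (-0.97 ± 0.29, limma adjusted p = 0.203). Pax5, the factor that maintains B-cell identity, had 56.4, 86.5, 61.8, 93.8 and 62.5 TPM at the high end and 61.7 to 78.1 TPM at the low end (0.02 ± 0.18, adjusted p = 0.988). The called member, Fcrl1, a B-cell receptor of the Fc receptor-like family, had 0.662, 1.20, 1.34, 1.93 and 4.11 TPM against 17.7, 33.3, 72.9, 8.37 and 27.1 TPM (-3.31 ± 0.49, limma adjusted p = 0.0249). Cd22, an inhibitory co-receptor, had 83.8 to 116 TPM against 138 to 326 TPM without overlap (-0.92 ± 0.23, adjusted p = 0.134). Cd72, another inhibitory co-receptor, had 135 to 248 TPM against 9.04 to 172 TPM (1.97 ± 0.63, adjusted p = 0.237).

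In the germinal centre list, 0 of 15 tested members were called by limma and 6 had an unadjusted p under 0.05, where 11.1% of all genes did, with a median of 0.31. 3 germinal centre transcripts were high in the 4 highest lymphomas and low or at 0 in PLN co T2. Nuggc, a nuclear GTPase of germinal centre B cells, had 23.4, 31.8, 17.6, 7.99 and 0 TPM at the high end and 0 to 0.489 TPM at the low end. Gcsam, a germinal centre signalling protein, had 6.45, 5.97, 5.46, 2.37 and 0 TPM against 0 to 0.0970 TPM. S1pr2, which confines B cells to the germinal centre, had 18.6, 11, 11.7, 6.05 and 1.60 TPM against 0.568 to 4.19 TPM. They were the 3 of 13 tested members called in 4 against 4 by limma. Their log2 fold changes were 4.10 (adjusted p = 0.000903), 2.47 (0.00254) and 2.23 (0.0260). Of the 13, 8 had a positive change, and 1.12% of all genes were called higher. Nuggc and Gcsam passed the filter on low values only through the 4 highest lymphomas, so the count of 3 is no result about the list. None of the 3 passed in 5 against 5 (limma, adjusted p = 0.124, 0.129 and 0.169). Cd86, a costimulatory ligand of activated B cells, was lower without overlap, at 2.23 to 9.26 TPM against 10.9 to 71.2 TPM (-2.23 ± 0.47, adjusted p = 0.0803).

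Ctss, the protease that trims the invariant chain of MHC class II, had 3.32, 3.52, 5.87, 1.91 and 117 TPM at the high end and 189, 135, 436, 220 and 114 TPM at the low end. PLN co T2 lay among the low lymphomas, and the change of -4.52 ± 0.87 missed the threshold (limma, adjusted p = 0.0590), which it passed in 4 against 4 (-5.47, adjusted p = 0.000285). It was the only one of 13 MHC class II genes called there, where 1.51% of all genes were called lower. In 5 against 5, 0 of 13 were called, where 0.303% of all genes were, with a median of 0.22. At an unadjusted p under 0.05 there were 2, where 11.1% of all genes had such a p. Ccnd1, which encodes cyclin D1, had 1.01, 0.422, 3.32, 1.14 and 46.3 TPM against 37.0, 58.8, 29.1, 74.7 and 69.2 TPM (-3.63 ± 0.81, adjusted p = 0.0896). It too passed in 4 against 4 (-4.62, adjusted p = 0.000502). In these genes PLN co T2 sat with the Syndecan-1-low lymphomas.

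Lists of growth and stress showed no called gene by limma in 5 against 5, where 0.303% of all genes were called. Their counts at an unadjusted p under 0.05 stand beside 11.1% of all genes. MYC targets had 0 of 30 called, a median of 0.17 and 4 members at an unadjusted p under 0.05, all higher; S phase genes had 0 of 30, 0.31 and 3; G2/M genes had 0 of 30, 0.26 and 0. The ATF4 arm of the unfolded protein response had 0 of 17 called and a median of 0.02, with 5 at an unadjusted p under 0.05. NF-kappaB genes had 0 of 20 and -0.24, with 1, immediate early genes 0 of 19 and -0.59, with 5, interferon response genes 0 of 13 and -0.10, with 1, and p53 targets 0 of 17 and 0.01, with 2. Genes of heparan sulfate proteoglycans and of heparan sulfate synthesis, the chains that syndecan-1 carries, had 0 of 21 called, a median of -0.03 and 3 at an unadjusted p under 0.05. Genes of early B-cell development, the other B-lineage stage that carries syndecan-1, had 0 of 11 called and a median of -0.51, with 4 positive changes. At an unadjusted p under 0.05, 2 of them were higher and 2 lower. In 4 against 4, where 7 passed the filter, 0 were called by limma, 4 had a positive change and the median was 1.39. Marginal zone and B1 genes had 0 of 17 called, a median of 0.19 and 5 at an unadjusted p under 0.05. In 4 against 4, where 2.63% of all genes were called, limma called Ahr higher (1.93, adjusted p = 0.0109). Lower by limma were Notch2, a receptor for marginal zone fate (-2.30, adjusted p = 0.0235), and Nfkb1, an NF-kappaB subunit (-0.89, adjusted p = 0.0390). The T-cell marker Cd3g, at 59.2, 32.8, 18.8, 2.74 and 8.12 TPM at the high end and 0 to 2.15 TPM at the low end, was called higher there too (3.78, adjusted p = 0.0335).

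Over all 19 lymphomas, the patterns most like that of Sdc1 among the 8494 genes that averaged at least 5 TPM were those of Slc36a4 (Spearman's rho 0.849), Itga6 (0.833), Yars (0.812), Alkbh4 (0.796), Cnot8 (0.774), Arl5a (0.770), Yeats2 (0.768) and Ptpra (0.768). Slc36a4, an amino acid transporter, had 6.40, 14.8, 13.4, 8.80 and 6.30 TPM at the high end against 0.286 to 5.04 TPM at the low end. Yars, the tyrosyl-tRNA synthetase, had 48.7 to 65.9 TPM against 28.2 to 42.8 TPM, and Itga6 has been given above. The least like were Cdc42ep4 (-0.763), Il6ra (-0.740), E2f5 (-0.730) and S100a6 (-0.714). None of the 18 plasma cell regulators was among these 12 genes. This says little, since 12 of 8494 genes leave hardly any room for members of a short list. Regulators that averaged under 5 TPM could not appear at all. The rho values are descriptions over samples that share the same 4 highest lymphomas, and they carry no test.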

How the data were processed

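Ribosomal RNA was removed from total RNA of B220-purified B cells, and stranded libraries were sequenced as read pairs, per the labels' protocols. The tools were FastQC and kallisto 0.43 and the build mm10 (GRCm38), per the submitters' processing notes; the annotation and the strand setting are not recorded in them, and values of overlapping or near-identical genes are uncertain. The authors' deposited table gave TPM for 88198 transcripts, summed here to 30735 genes, 740 without a symbol. Read pairs recovered from the TPM steps with the deposited effective lengths gave depths of about 11531400 to 32032591 (median 21464188); 61.2 to 76.4% of low values were whole within 0.02, so they served for depth and 1 alternative. Lymphomas were ranked by Sdc1 TPM and the 5 highest set against the 5 lowest, so the ends are measured and not labelled groups. The members and the gene lists were chosen with earlier results of these data known.

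Genes that reached 1 TPM in 4 or more of the 10 samples were tested on log2(TPM + 1) by limma 3.58.1 (trend and robust settings, R 4.3.3), with Benjamini-Hochberg adjustment over all genes and a threshold of 0.05; this scale understates changes of low genes. 4 shares were compared by exact two-sided permutation of the mean. The naming rule picked up to 12 genes each way with the largest changes among called genes without overlap and with a mean of 5 TPM or more in the higher group (no immunoglobulin segments, predicted genes or pseudogenes). It also picked all plasma cell regulators, the 3 members of each other list that changed most (called ones first), and the 8 most and 4 least like Sdc1. Many of the members picked from the other lists are not given in the text. Mzb1, Txndc5, Tnfrsf13c, Tnfrsf17, Pax5, S1pr2, Ahr, Nfkb1, Anxa1, Chd7, Diaph2, Ddx3y and Mtap were named after their values were seen. The fit was also run on simulated data, and no result given here rests on that run. Alternatives changed the pseudocount, filter, scaling, group size, covariates and samples. Other software was scipy 1.17.1, numpy 2.4.6, pandas 2.3.3, matplotlib 3.10.9 and Python 3.11.15.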

Additional observations from a re-analysis of the deposited data

Results flagged for a closer look

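In 140 sets of 5 samples, 16 values lay apart from the rest of their end by Dixon's criterion (gap over range above 0.71), where chance flags about 1 in 20 sets. PLN co T2 gave 6 of them within the Syndecan-1-high lymphomas: Bank1 at 30.4 TPM, Cd53 at 76.6 TPM, Tlr1 at 9.62 TPM, Scpep1 at 13.5 TPM and Ctss at 117 TPM were far above the other 4, and Xbp1 at 16.9 TPM far below. Rtn4r was low in MLN cr T20, at 1.17 TPM.

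Within the Syndecan-1-low lymphomas, PLN hv T15 was high in Bank1 (283 TPM), Pld4 (223 TPM), Camk1d (29.4 TPM), Creb3l2 (7.27 TPM) and the heavy chain constant share (0.580% of TPM). Lung co T9 was high in Smco4 (4.74 TPM) and low in Atf6 (12.7 TPM). Xbp1 was low in MLN cr T1 (12.4 TPM) and Mef2c in Lung cr T9 (12.5 TPM).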

How the results depend on the processing

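No paired analysis was run, because the labels give no mouse or pairing that links a lymphoma of one end to a lymphoma of the other. Ranks 5 to 9 against the 5 lowest, the slope over 15 lymphomas without the 4 highest, the Ddx3y term and voom on recovered read pairs were chosen after seeing the data. The 34 called genes became 13 with a pseudocount of 0.1, 7 without a filter, 286 in 4 against 4, 6 in 6 against 6, 252 by the slope on Sdc1 over 19 lymphomas, 256 with name style and 207 with line and site as terms (18 lymphomas, without Lung hv T39, whose title says hv and whose description says CO), 64 with site as a term in the ends, 69 with a term for Ddx3y, 9 by voom, and 0 over the 9 lymphomas between the ends (1256 at an unadjusted p under 0.05), in ranks 5 to 9 against the 5 lowest (803) and over 15 lymphomas (755); leaving out 1 lymphoma gave 8 to 297. The 1 called gene of the 3 plasma cell lists became 0 with a pseudocount of 0.1, no filter, a filter of 5 TPM, 6 against 6, voom and the 3 fits with 0 calls, 2 with median-of-ratios scaling, 3 with site as a term, 5 in 4 against 4 and in the slopes over 19 and 18 lymphomas and with name style, and 0 to 7 when leaving out 1 lymphoma. The difference in the heavy chain share was -0.0033 points in 4 against 4 and -0.0093 to 0.0927 leaving out 1, the highest without PLN hv T15 (exact permutation p = 0.0317); the light chain share ranged over 0.0097 to 0.0932, the secreted share over -12.1 to -4.10 and the switched share over 0.933 to 4.63, with -2.08 in ranks 5 to 9. Depth limits the low end, where Sdc1 rests on as few as 9 read pairs. The cause of these moves was not tested.

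Changes of sign were at adjusted p-values of 0.270 to 0.9996 (limma). Over the 9 lymphomas between (log2 per log2 of Sdc1) they were Eif2s3y -1.25, Slc4a8 0.72, Scpep1 0.25, Pinlyp 0.41, Rbms1 0.080, Prdm1 -1.0, Xbp1 -0.52, Creb3l2 -0.90, Hhex 0.17, Ikzf3 -0.79, Foxo1 0.66, Atf4 0.40, Kdm6b 0.51, Eaf2 -0.51, Jchain -2.14, S1pr1 0.63, Tnfrsf13c -1.32, Ccnd1 0.60, Cd72 -0.54, S1pr2 -0.51, Notch2 0.093, Ahr -1.26, Nfkb1 0.057, Cd3g -1.70, Ebf1 1.34 and Mzb1 -2.25. In ranks 5 to 9 they were Slc43a1 -0.0011, Tlr1 0.47, Scpep1 0.0083, Xbp1 -0.29, Zbtb20 1.40, Ell2 0.44, Atf6 -0.0026, Hhex 0.18, Klf4 -0.33, Tent5c 0.35, Cd22 0.38, S1pr2 -0.18, Notch2 0.35, Nfkb1 0.67, Ebf1 0.28 and Mzb1 -1.19. Over 15 lymphomas they were Tlr1 0.20, Xbp1 -0.14, Zbtb20 0.86, Ell2 0.29, Hhex 0.049, Zbtb32 0.016, Klf4 -0.096, Tent5c 0.27, Cd22 0.15, S1pr2 -0.066, Notch2 0.14, Nfkb1 0.38, Ebf1 0.027 and Mzb1 -0.66. Over 19 lymphomas Atf4 was 0.0070 and Pax5 -0.043, with name style Ikzf3 -0.0026, Atf4 0.0043 and Pax5 -0.030, with Ddx3y Mef2c -0.026, Atf4 0.030 and Pax5 -0.014, and with line and site Pax5 -0.014. In 6 against 6, Mef2c was -0.087, Atf4 0.039 and Mzb1 -0.36. Atf6 was -0.13 with name style and -0.036 with site in the ends. Leaving out 1 lymphoma gave ranges across 0 of -0.032 to 0.35 for Irf4, -0.70 to 0.21 for Ell2, -0.18 to 0.023 for Atf4, -0.26 to 0.13 for Atf6, -0.20 to 0.19 for Mef2c, -0.10 to 0.49 for Mzb1 and -0.079 to 0.10 for Pax5. The other genes named with a test kept their direction under every alternative run. In 309 of 689 cases a called gene no longer passed under an alternative, 9 of them with the other sign, and in 70 of 1089 an uncalled one passed.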
